A study of Drosophila melanogaster with 3 samples.

Results

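The 47 genes described here run the cell cycle and copy the DNA of the fly. They were taken from a fixed list of symbols, all 47 were found in the dm6 annotation, and they stand among 13968 protein-coding genes. By role they fell into 14 origin licensing genes, 6 genes of the replication fork and nucleotide supply, 14 cyclins, kinases, phosphatases and inhibitors of cyclin-dependent kinases (CDKs), 3 E2F factors, and 10 genes of the mitotic checkpoint, anaphase and the anaphase-promoting complex or cyclosome (APC/C). At each gene, the deposited peaks of chromatin immunoprecipitation with sequencing (ChIP-seq) were read for places occupied by Dek, a chromatin protein. Material was whole Drosophila melanogaster embryos of pooled sexes, 0 to 24 h old, from a transgenic line in which Dek carries GFP at its C terminus, and the immunoprecipitation used an antibody against GFP. All 3 biological replicates formed 1 group, and no input library or untagged line was among the samples, so signal was compared between genes and between replicates, not with a control. Whole embryos mix all cell types and stages of that day, dividing and arrested cells alike. The authors deposited 1 list of 30000 peaks for each replicate, a pooled list of 30000, and the 4736 peaks kept at their irreproducible discovery rate (IDR) threshold, which were the 4736 strongest pooled peaks. A summit, the position of highest signal in a peak, at most 500 bp from a start of transcription (TSS) is called a promoter summit. Rank 1 is the strongest peak of a list by the authors' signal, in a unit that no source used here states. The read depth is unknown.

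Origins of replication are licensed when the origin recognition complex, Cdc6 and Cdt1 (Dup in the fly) load the Mcm helicase onto DNA. Geminin blocks a repeat of this within the same cycle. Cyclins with their CDKs fire the licensed origins and later drive mitosis, E2F with its partner Dp activates or represses many S-phase genes, and the spindle checkpoint holds the APC/C back until the chromosomes are attached. In the fly, the promoters of several replication genes are known to carry sites for E2F and for the factor Dref, which binds the DNA replication-related element (DRE). Early embryos divide on maternal stores, and later divisions depend on zygotic control of string.

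Reference sequences below come from RefSeq Release 6 in dm6 coordinates, on the plus strand. They show letters under or near the summits that the results turn on. The first 3 lie around promoter summits of Orc2 (chr3R:13964669-13964869), mad2 (chr3L:5813095-5813295) and Bub3 (chr3R:29675422-29675615), with capitals on the DRE, TATCGATA. PolA1 (chr3R:21671751-21671950) has 3 DREs in the bases before its TSS, also in capitals. PolE1 (chr3R:23348021-23348068) and stg (chr3R:29255801-29255833) carry an E2F motif just before the TSS, in capitals, which reads TTTGGCGC on one of the strands. The stg stretch ends before the TSS and does not hold the pooled summit, which lies 28 bp past it. Cdk1 (chr2L:10386362-10386562), Mcm2 (chr3R:8264658-8264858) and CycE (chr2L:15747078-15747278) hold 3 of the strongest summits of the 47 genes, and capitals mark the longest run of A and T, which was 13, 24 and 26 bases. Dp and RnrS had stronger summits and are not printed. Run lengths were not compared with those of all IDR sites.
Orc2: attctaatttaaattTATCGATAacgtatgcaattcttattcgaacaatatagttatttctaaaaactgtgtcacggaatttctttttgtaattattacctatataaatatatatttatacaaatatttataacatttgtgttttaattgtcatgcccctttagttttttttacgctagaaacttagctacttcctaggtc
mad2: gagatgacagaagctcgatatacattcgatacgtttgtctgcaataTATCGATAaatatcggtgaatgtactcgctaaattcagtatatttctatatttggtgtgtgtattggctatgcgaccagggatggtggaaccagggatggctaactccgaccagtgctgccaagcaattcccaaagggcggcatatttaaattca
Bub3: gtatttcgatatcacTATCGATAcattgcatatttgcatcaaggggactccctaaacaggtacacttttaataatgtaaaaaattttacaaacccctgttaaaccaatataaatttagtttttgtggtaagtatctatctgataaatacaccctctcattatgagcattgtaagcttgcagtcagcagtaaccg
PolA1: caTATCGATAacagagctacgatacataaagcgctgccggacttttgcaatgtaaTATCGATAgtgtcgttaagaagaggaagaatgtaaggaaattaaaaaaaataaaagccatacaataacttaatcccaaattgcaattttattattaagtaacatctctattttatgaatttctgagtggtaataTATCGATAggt
PolE1: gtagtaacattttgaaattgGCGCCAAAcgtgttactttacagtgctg
stg: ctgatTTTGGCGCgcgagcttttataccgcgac
Cdk1: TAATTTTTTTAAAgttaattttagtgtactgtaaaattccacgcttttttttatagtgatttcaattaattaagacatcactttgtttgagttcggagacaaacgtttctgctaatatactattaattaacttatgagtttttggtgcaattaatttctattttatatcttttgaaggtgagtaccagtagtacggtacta
Mcm2: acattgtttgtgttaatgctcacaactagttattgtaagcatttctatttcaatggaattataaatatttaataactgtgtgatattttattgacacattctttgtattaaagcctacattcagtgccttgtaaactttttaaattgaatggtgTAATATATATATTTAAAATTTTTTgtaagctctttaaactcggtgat
CycE: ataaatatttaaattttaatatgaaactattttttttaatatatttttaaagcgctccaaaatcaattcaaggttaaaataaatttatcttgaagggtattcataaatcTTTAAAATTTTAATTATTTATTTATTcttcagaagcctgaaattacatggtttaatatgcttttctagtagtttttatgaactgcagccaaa

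Dek promoter summits were found at 17 of the 47 genes (36.2%) in the IDR list, against 22.8% of all protein-coding genes. By role these were 5 of 14 origin licensing genes, 1 of 6 fork and nucleotide genes, 4 of 14 cyclins and kinases, 2 of 3 E2F factors and 5 of 10 checkpoint and APC/C genes. In the longer pooled list, 37 genes (78.7%) had a promoter summit against 48.8% of all genes. Keeping only the 10504 pooled peaks with a q value of 0.05 or lower, a limit chosen after seeing the data, left 32 genes (68.1%) against 34.9%. Weak summits were thus common at these promoters, and strong ones less so: 8 of the 47 had a promoter summit among the 2368 strongest IDR peaks (17.0%), against 13.2%. These shares are descriptions, and no test was run on the list.

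The replicates differed in how many of these promoters they held among their 4736 strongest peaks, the number in the IDR list. Replicate 1 had 16 of the 47 (34.0%, background 21.8%), replicate 2 had 20 (42.6%, background 23.9%) and replicate 3 had 10 (21.3%, background 20.8%). The mean was 32.6% ± 10.7 (SD, n = 3) against 22.2% ± 1.58 for all genes, so the SD of the share was about as large as the gap between the means. Set against the background of the same replicate, replicates 1 and 2 showed a gap and replicate 3 almost none. Over all 30000 peaks of each list, the counts were 33 (70.2%, background 44.5%), 42 (89.4%, background 52.5%) and 37 (78.7%, background 50.1%), all above the background. A promoter summit, at any TSS of the gene and not always the same one, was present in all 3 full lists at 27 genes (57.4%), against 31.8% of all genes. Among the strongest peaks of all 3 replicates there were 7 genes (14.9%), against 13.1%: dup, geminin, RnrS, aurB, E2f1, Dp and BubR1. No replicate held a strong summit at 22 genes (46.8%), against 68.4%. Requiring a strong summit in both of the replicates left after leaving out 1, a stricter rule than the pooled list, gave 9 genes without replicate 1 (19.1%, background 16.5%), 7 without replicate 2 (14.9%, background 14.2%) and 12 without replicate 3 (25.5%, background 17.3%).

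**Figure D1:**
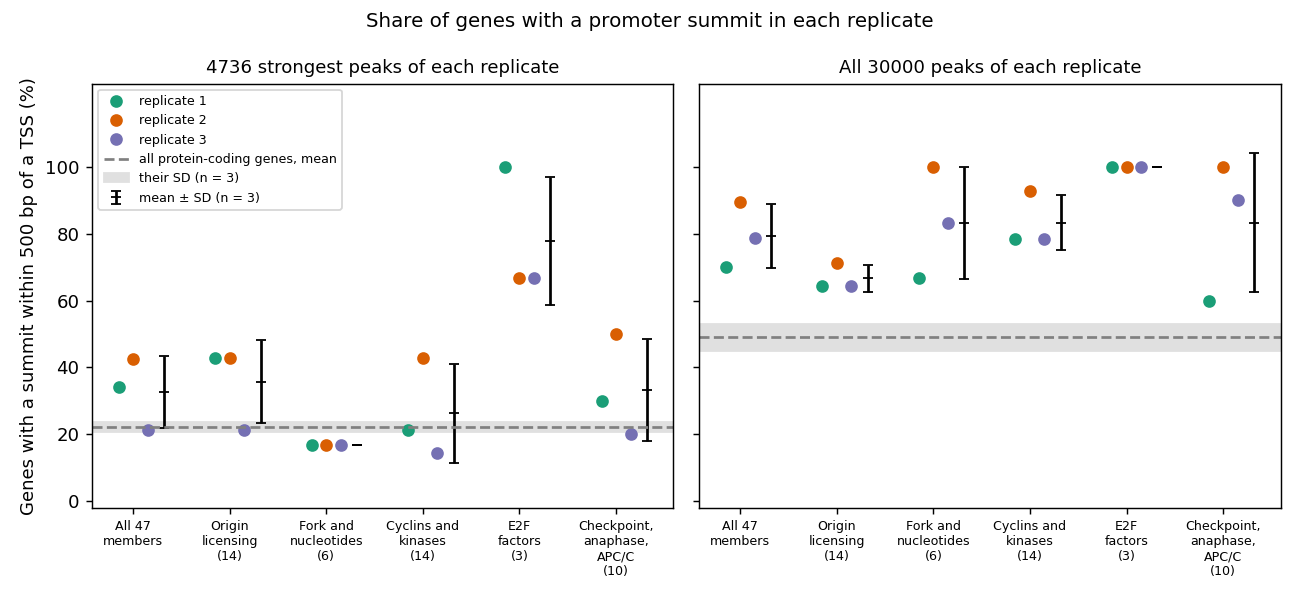
Share of genes with a promoter summit in each replicate (y axis, %), for the 47 genes and each role group (x axis, number of genes in brackets), among the 4736 strongest peaks (left) and all 30000 peaks (right). Points are replicates, bars are the mean ± SD of 3 replicates, and the dashed line with its band is the mean ± SD of all protein-coding genes; on the left the points for all 47 run from 21.3 to 42.6% around a background of 22.2%, and on the right from 70.2 to 89.4% above one of 49.0%.

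By role, the mean share among the strongest peaks was 35.7% ± 12.4 for origin licensing genes, 16.7% ± 0 for fork and nucleotide genes, 26.2% ± 14.9 for cyclins and kinases and 33.3% ± 15.3 for checkpoint and APC/C genes (SD, n = 3 replicates). All protein-coding genes counted likewise had 22.2% ± 1.58. The replicate values of licensing, cyclin and checkpoint genes overlapped, so these groups could not be ordered. The fork group stood at 1 of 6 genes in each replicate because RnrS alone was called. The 3 E2F factors had 3, 2 and 2 genes called in replicates 1, 2 and 3. Under the stricter rule, leaving out replicate 1, 2 or 3 gave 3, 2 and 4 licensing genes (21.4, 14.3 and 28.6%). It gave 2, 1 and 3 cyclins and kinases (14.3, 7.14 and 21.4%), and 2 E2F factors each time. Under this stricter rule the background was 16.5, 14.2 and 17.3%.

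Among origin licensing genes, Mcm2, a subunit of the replicative helicase, had the strongest summit. It lay at 3R 8264758, 212 bp before the Mcm2 TSS, with a pooled signal of 454 (rank 1000) and ranks of 407, 1526 and 4765 in replicates 1, 2 and 3. Replicate 1 was high and replicate 3 just outside its 4736 strongest. The same summit lay 307 bp from the TSS of RPA1, which encodes the large subunit of the single-strand DNA binding protein RPA and points the other way, so the peak cannot be assigned to either gene. For dup, the Cdt1 gene, the summit at 2R 15381249 had a signal of 346 (rank 1599) and ranks of 1222, 1556 and 3517, strong in every replicate. It lay 261 bp before the dup TSS, inside an intron of the neighbouring SRPK and 200 bp from a TSS of that gene. The summit of geminin, whose protein inhibits Dup, lay in its 5′ UTR at 2R 6656429, 28 bp before an internal TSS, with a signal of 220 (rank 3153) and ranks of 3451, 4676 and 2355. Its replicates lay close together, all among the strongest peaks.

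Both called subunit genes of the origin recognition complex had weaker summits, each low in a different replicate. Orc2 had its summit at 3R 13964769, 116 bp before the TSS, with a signal of 200 (rank 3636) and ranks of 2923, 3818 and 12888, low in replicate 3. Orc1 had its summit at 2R 7525794, 78 bp before the TSS, with a signal of 191 (rank 3891) and ranks of 11524, 4301 and 3090, low in replicate 1. Orc4, Orc5 and Orc6, which encode further subunits, had no IDR summit. Of the 6 Mcm genes, Mcm2 was the only one with an IDR summit: Mcm7 and Mcm6 had pooled summits, and Mcm3, dpa (the Mcm4 gene) and Mcm5 had none. Mcm5 was called in replicate 1 only, at rank 2742, and dpa and Orc6 in no replicate. Among the Mcm genes, the promoter window of Mcm2, whose summit is shared with RPA1, thus held the strongest summit, and that of dpa held none in any list. Of all genes, 51.2% likewise had no pooled promoter summit.

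At the fork, RnrS carried the second strongest promoter summit of the 47 genes. RnrS encodes the small subunit of ribonucleotide reductase, which makes deoxyribonucleotides. Its summit at 2R 11985580, 187 bp before the TSS, had a pooled signal of 697 (rank 441). A TSS of CG34231, on the other strand, lay 428 bp from this summit. The signal was 277, 259 and 160 in replicates 1, 2 and 3, at ranks 383, 465 and 662, high in all of them. RnrL, the gene of the large subunit of the same enzyme, had no pooled summit and was called in replicate 2 only, at rank 17376. PCNA (the sliding clamp), PolA1 and PolE1 (catalytic subunits of polymerases alpha and epsilon) were called in all 3 full lists but not in the IDR list, and PolD1 (polymerase delta) in replicates 2 and 3 only.

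Among cyclins and kinases, 4 of 14 genes had an IDR promoter summit (28.6%, against 22.8% of all genes). All 4 encode mitotic kinases, and none encodes a cyclin. That split depended on the limit: at 1000 bp CycE, with a summit 568 bp from a TSS, was called too, giving 5 of 14 (35.7%, against 26%). Cdk1, the kinase that drives entry into mitosis, had a summit at 2L 10386462, 200 bp before its TSS and 200 bp from that of mRpS7 on the other strand. Its pooled signal was 483 (rank 885), with ranks of 943 and 1866 in replicates 2 and 3. Replicate 1 listed no summit there, and its nearest lay 10531 bp away, so this strong pooled peak rests on 2 replicates. aurA, a kinase of centrosomes and the spindle, had a summit at 3R 11962996, 128 bp before the TSS and 191 bp from that of CG3281, with a signal of 316 (rank 1865) and ranks of 1227, 2056 and 5582. Replicates 1 and 2 were high and replicate 3 lower.

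aurB, whose kinase belongs to the chromosomal passenger complex, had a pair of IDR summits between its TSS and that of Stam. One at 2L 10858253, 159 bp before the aurB TSS, had a signal of 299 (rank 2035), with ranks of 1048 and 2826 in replicates 1 and 2. In replicate 3 the nearest summit lay 176 bp away. The other, at 10858452 and 84 bp from the Stam TSS, had a signal of 217 (rank 3220) and ranks of 1919, 5111 and 3579. polo, the gene of Polo kinase, had a summit in its 5′ UTR at 3L 20309945, 102 bp before an internal TSS, with a signal of 197 (rank 3722) and ranks of 4350, 4555 and 6526, the most even of the 4 kinases.

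Among the 3 E2F factors, Dp and E2f1 had IDR promoter summits (66.7%, against 22.8% of all genes). These 2 genes are longer than E2f2 (5770 and 40568 bp, against 2457 bp). They also have more annotated start sites (3 and 5, against 2), and whether this bears on the number of summits was not tested. Dp, the shared partner of both E2F proteins, had the strongest promoter summit of all 47 genes, at 2R 13223401 in an intron and 190 bp before an internal TSS. Its pooled signal was 782 (rank 344), with signals of 263, 256 and 247 and ranks of 432, 475 and 286 in replicates 1, 2 and 3. The replicates were close together and all high. A second Dp summit, at 13224011 and 420 bp past that TSS, had a signal of 473 (rank 923) and ranks of 1276, 894 and 1112. E2f1, the activating E2F, had IDR summits at 3R 21633387, in an intron 314 bp before an internal TSS, and at 21660889, 18 bp before its outermost start. The former had a signal of 261 (rank 2452) and ranks of 3297, 2422 and 2752, and the latter a signal of 168 (rank 4560) and ranks of 6220, 7920 and 5373. The internal promoter thus ranked higher than the outermost one in every replicate. E2f2, the repressing E2F, had a pooled summit only (rank 5693). With the outermost start alone, 1 of the 3 E2F genes was called, because both Dp summits lie at an internal start.

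Of the 10 checkpoint and APC/C genes, 5 had an IDR promoter summit (50%, against 22.8% of all genes). Only 1 of the 10 had one among the 2368 strongest IDR peaks (10%, against 13.2%). BubR1, which encodes a checkpoint kinase, was the strongest: its summit at 2R 5974529, 144 bp before the TSS, had a signal of 340 (rank 1648) and ranks of 2049, 1259 and 2875, high in all replicates. mad2, the gene of the checkpoint protein that binds Cdc20, had a summit at 3L 5813195, 102 bp before the TSS, with a signal of 233 (rank 2913). Its ranks of 18576, 4851 and 1800 were wide apart, low in replicate 1 and high in replicate 3. Bub3, the gene of the BubR1 partner, had a summit at 3R 29675515 with a signal of 187 (rank 3996) and ranks of 6543, 2448 and 16685, low in replicate 3. It lay 94 bp before the Bub3 TSS and 136 bp from that of Cap-D2, a condensin subunit gene.

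Both called regulators of the APC/C lay near a limit of the rule. fzr encodes the Cdh1-type activator of the APC/C. Its summit at X 4680001 had a signal of 220 (rank 3157) and ranks of 4307, 1592 and 10676. It lay 464 bp before the TSS, inside the 3′ UTR of Pp2C1, and was the farthest promoter summit counted. CycE was the nearest gene outside this limit, 568 bp from a TSS. Rca1, an inhibitor of the APC/C, had its summit at 2L 6852188, 127 bp before the TSS, with a signal of 181 (rank 4176). Replicate 1 held it at rank 1462 and replicate 2 at 12882, and in replicate 3 the nearest summit lay 231 bp away at rank 21030, so it rests mainly on replicate 1. Rca1 was the weakest gene inside the IDR list, and Mcm7, at rank 5593, the first outside it. Without replicate 1, 2 or 3 in turn, 1, 1 and 2 of the 10 genes had a strong summit in both remaining replicates. These shares of 10, 10 and 20% stood beside 16.5, 14.2 and 17.3% of all genes.

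**Figure D2:**
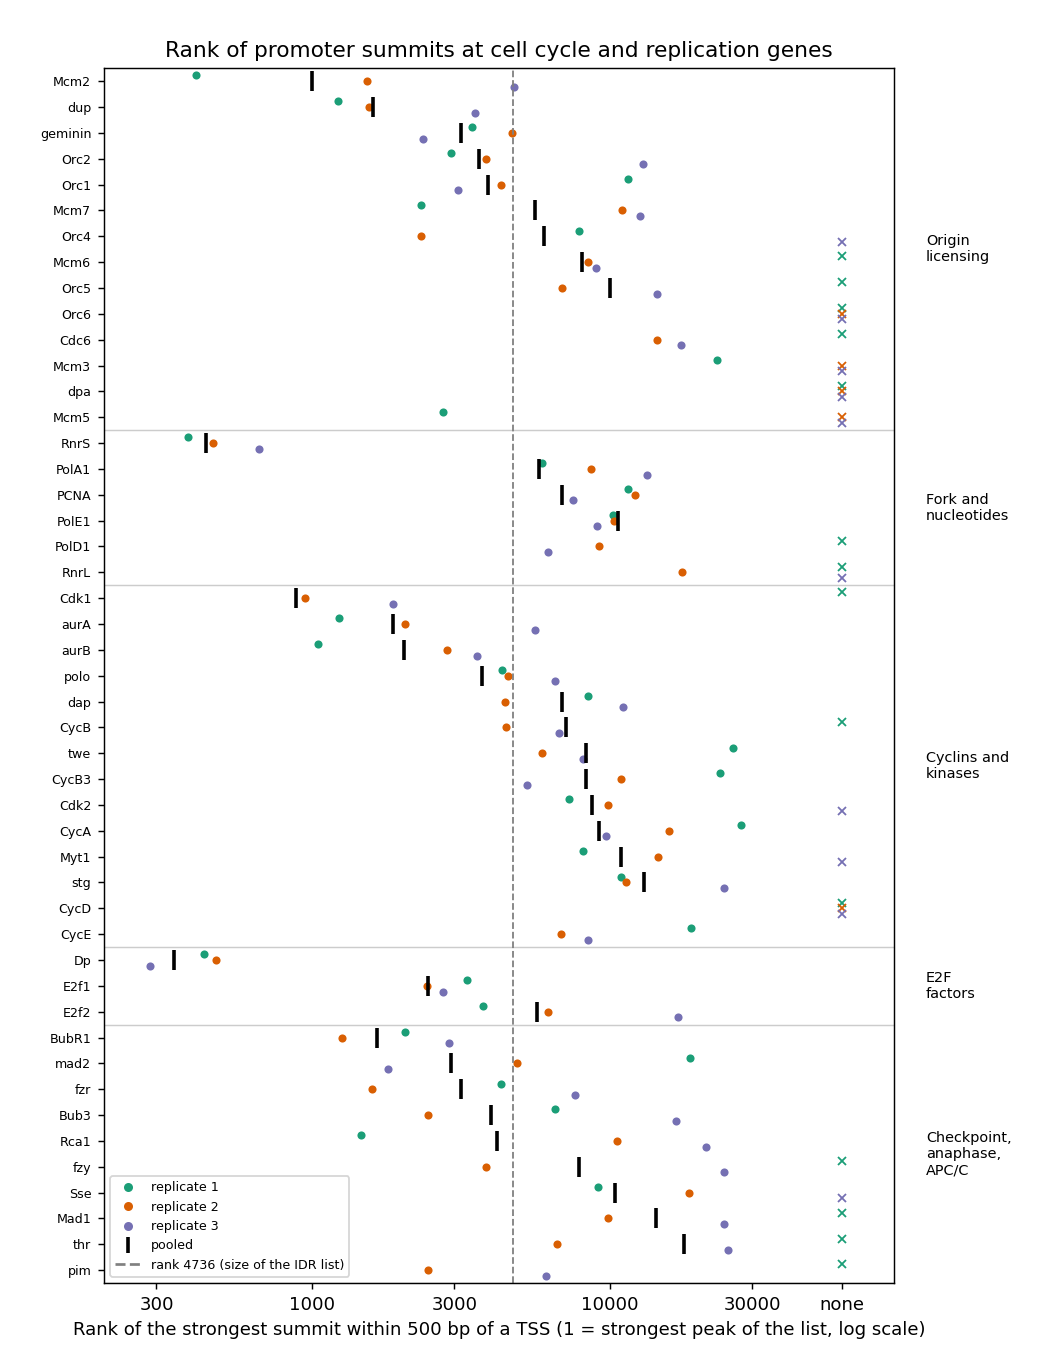
Rank of the strongest promoter summit of each of the 47 genes (x axis, log scale, 1 is the strongest peak of the list), with coloured points for replicates, a black bar for the pooled list and crosses for no summit, grouped by role and ordered by pooled rank. Points left of the dashed line are among the 4736 strongest peaks of their list; Dp and RnrS stay left in every replicate, while mad2 spans 1800 to 18576.

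Where they had one, the 17 genes carried their summit at the usual promoter position. The strongest promoter summit lay upstream of the nearest TSS of its gene in 17 of 17, against 88.9% of the 3185 protein-coding genes with an IDR promoter summit. The median position was -144 bp against -138 bp. The median rank was 2452 against 1986, and 8 of 17 (47.1%) were among the 2368 strongest, against 57.8%, so the called genes were not stronger than called genes in general. GC content within 100 bp was 32.8% ± 8.69 (SD, n = 17 genes) against 34.3% ± 7.61. The sequences of Cdk1, Mcm2 and CycE printed above had 26.4, 24.9 and 20.4%, while Dp had 51.2%, so both GC-poor and GC-rich sequence underlay strong summits. A TSS of another protein-coding gene lay within 500 bp of the summit at 7 of 17 (41.2%), against 55.8%. Close neighbours are common in this genome: 28 of the 47 genes (59.6%) had a TSS of another gene within 1000 bp of theirs, against 48.2%. Among the other 19 genes, 6 had an IDR promoter summit (31.6%), against 12.8% of all genes without such a neighbour.

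**Figure D3:**
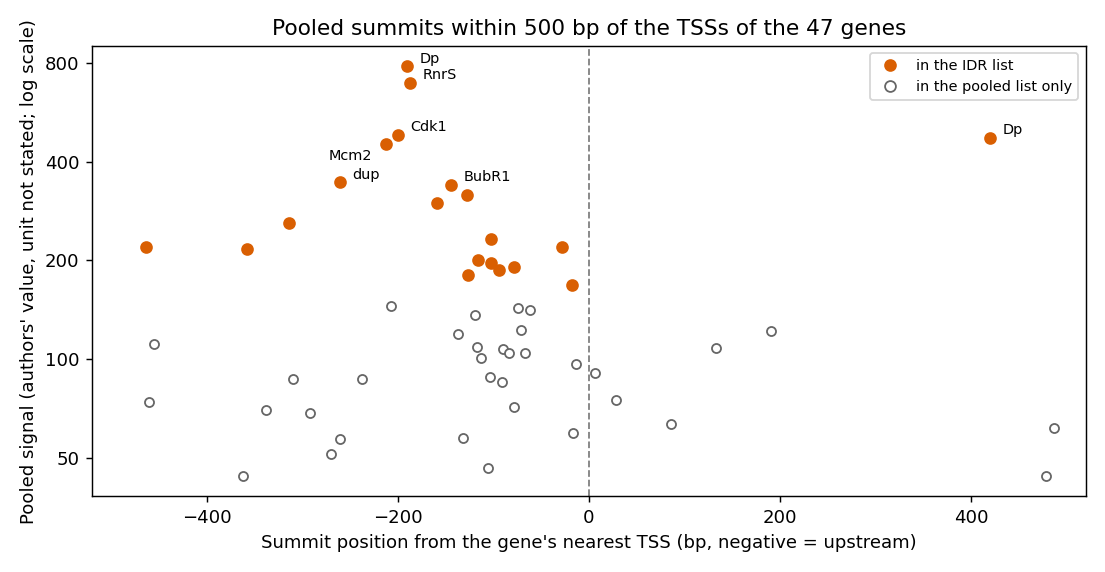
Position of every pooled promoter summit of the 47 genes relative to the nearest TSS of the gene (x axis, bp, negative is upstream) against the authors' pooled signal (y axis, log scale). Filled points are in the IDR list and open points in the pooled list only; most of both kinds lie upstream, and the second summit of Dp, at 420 bp, is the one filled point past the TSS.

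Summits elsewhere in the gene, between promoter windows, were found at 2 genes in the IDR list (4.26%), against 7.43% of all genes, and at 15 in the pooled list (31.9%), against 29.6%. The IDR cases were CycE and E2f1, both among the 3 genes of 10000 bp or longer; the third, fzr, had none. Among all genes of that length, 35.1% had such a summit. The CycE gene, which encodes the cyclin that partners Cdk2 at the start of S phase, had a summit at 2L 15747178 with a pooled signal of 587 (rank 613) and ranks of 353, 514 and 3911. It lay in an intron, 568 bp upstream of an internal TSS, and was stronger than the promoter summits of all but Dp and RnrS. CycE had a promoter summit in each full replicate list, but not at the same start, and none in the pooled list. In replicate 1 it lay at the TSS at 2L 15731784, and in replicates 2 and 3 at the TSS at 15748150. Counted with a limit of 1000 bp, the intronic summit became a promoter summit and 18 of the 47 genes were called.

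E2f1, 40568 bp long with 5 annotated start sites, had 23 pooled summits elsewhere in the gene, of which 3 were in the IDR list. The strongest, at 3R 21627882 in an intron and 4811 bp past the nearest TSS, had a signal of 388 (rank 1315) and ranks of 2022, 1898 and 688. It was stronger than both promoter summits of the gene, in the pooled list and in each replicate. The other IDR summits, at 21657069 and 21635391, also lay in introns, with signals of 209 (rank 3430) and 169 (rank 4557). The fzr gene had 10 pooled summits elsewhere, none stronger than rank 8095.

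**Figure D4:**
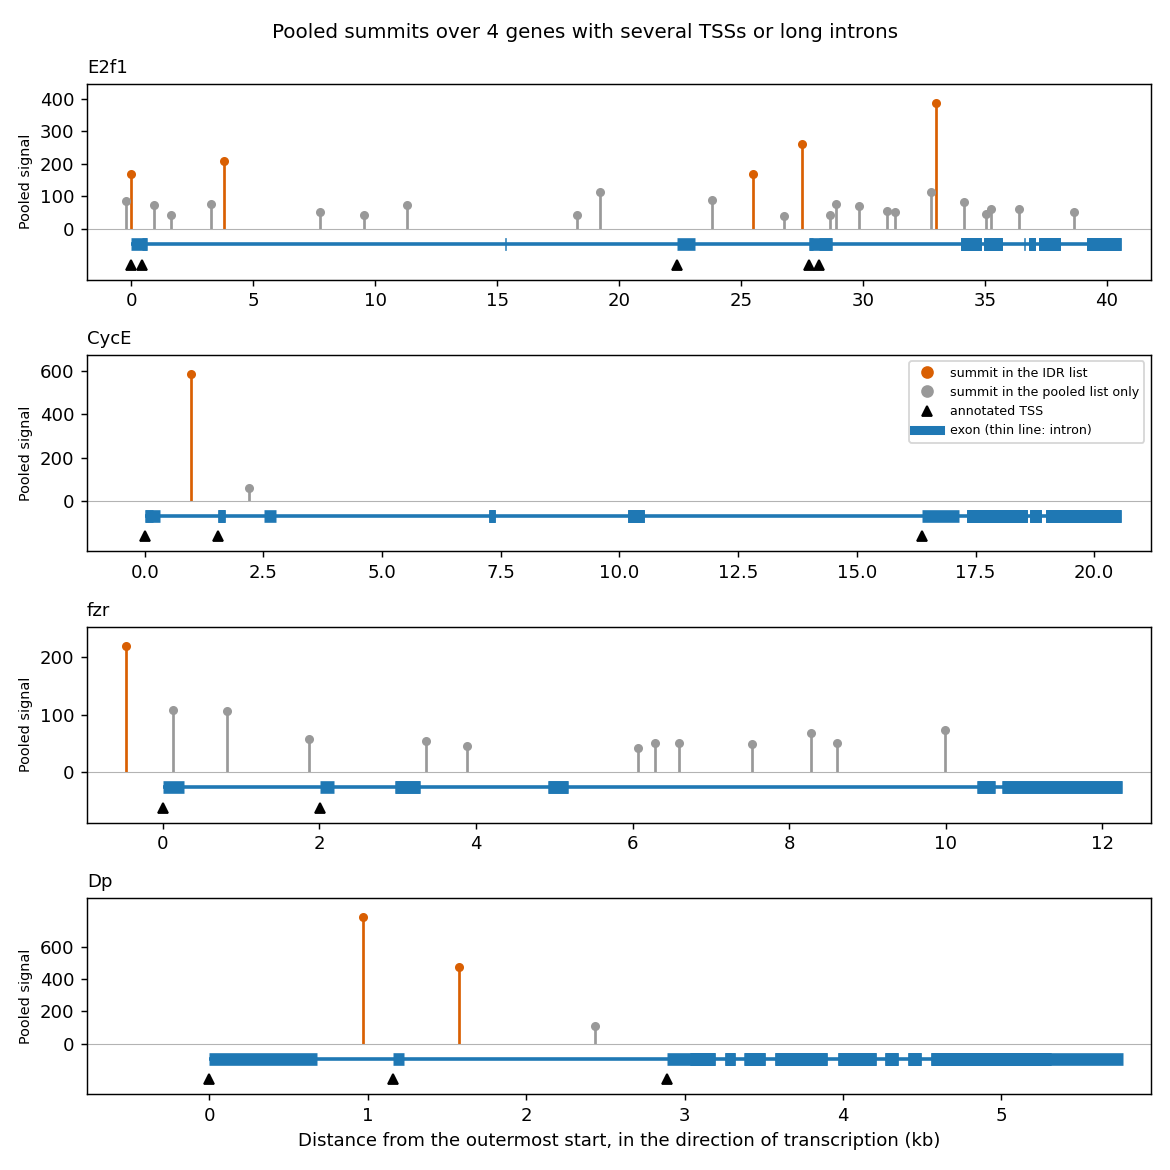
Maps of E2f1, CycE, fzr and Dp, with distance from the outermost start in the direction of transcription (x axis, kb) and the authors' signal of each pooled summit (y axis). Orange stems are in the IDR list and grey stems in the pooled list only, blue boxes are exons and triangles annotated start sites; the tallest stem lies in an intron in E2f1, CycE and Dp, and before the outermost start in fzr.

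Promoter summits in the pooled list but not the IDR list were found at 20 genes (42.6%), against 26% of all genes, with ranks from 5593 to 17723 and a deposited −log10 q of 0.654 to 2.82. Of the 20, 17 lay upstream of the TSS (85.0%, against 69.0% of all genes with a pooled summit only). In all 3 full replicate lists some promoter summit was present at 10 of them (50%, against 41.2%): Mcm7 (pooled rank 5593), E2f2 (5693), PolA1 (5770), PCNA (6868), dap (6908), twe (8310), CycB3 (8328), CycA (9178), PolE1 (10626) and stg (12966). String and Twine, products of stg and twe, are Cdc25 phosphatases that activate Cdk1, and dap encodes an inhibitor of cyclin E with Cdk2. All 3 replicates had a summit within 150 bp of the pooled one at 8 of these 10 (40.0% of the 20, against 20.2%), the exceptions being Mcm7 and stg. At stg, replicates 1 and 2 held it at ranks 10866 and 11313, replicate 3 had only other promoter summits, and the pooled −log10 q of 0.987 did not reach a q of 0.05. In the dap gene the summit lay past the TSS, by 191 bp, with ranks of 8397, 4426 and 11066. The remaining genes with a pooled summit only were Orc4, Orc5, Mcm6, CycB, Cdk2, Myt1, fzy, Mad1, thr and Sse.

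No pooled promoter summit was listed at 10 genes (21.3%), against 51.2% of all genes: Orc6, Cdc6, Mcm3, dpa, Mcm5, PolD1, RnrL, CycD, CycE and pim. Of these, 5 were origin licensing genes, 35.7% of that group. The securin gene pim had a summit of rank 2438 in replicate 2 and 6087 in replicate 3, and none in replicate 1. Orc6, dpa and CycD had none in any replicate (6.38% of the 47, against 34.1% of all genes). Since the lists end at 30000 peaks, a gene with no summit may have had a weaker one.

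Promoter letters known from replication genes were counted on both strands in the 250 bp before to 50 bp after each TSS. An E2F motif (TTTCCCGC, TTTGGCGC, TTTCGCGC or TTTGCCGC) was present at 16 of the 47 genes (34.0%), against 8.71% of all genes, and 10 of these were origin licensing genes. It was present at 4 of the 17 genes with an IDR promoter summit (23.5%, against 11.4% of all such genes) and at 12 of the 30 without one (40%, against 7.90%). Mcm3, dpa, Mcm5, Orc6, RnrL and CycE, all with E2F letters, had no promoter summit even in the pooled list. Such a summit was also absent at 51.2% of all genes. Near the summits themselves E2F letters were rare: within 100 bp they occurred at 1 of 17 genes (5.88%, against 3.42%), which was Orc1. Among genes with a pooled summit only, the nearest pooled summit lay 6 bp from the E2F letters at PolE1, whose sequence is printed above, 7 bp at Orc5, 37 bp at stg, 106 bp at Mcm6, 146 bp at Orc4 and over 500 bp at CycB. That PolE1 summit, at rank 13848 with a −log10 q of 0.915, did not reach a q of 0.05. With the outermost start only, 12 of 47 had the motif (25.5%, against 6.45%).

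The DRE was present at 10 of the 47 promoters (21.3%, against 10.2%): Orc2, Orc5, PCNA, PolA1, CycA, Cdk2, BubR1, mad2, Bub3 and Sse. Within 100 bp of the promoter summit it occurred at 3 of 17 genes (17.6%, against 8.98%), the Orc2, mad2 and Bub3 sites printed above, at 82, 51 and 75 bp from the summit. Among genes with a pooled summit only, the distance was 3 bp at PolA1, from the middle one of its 3 DREs, which lies 59 bp before the TSS. It was 6 bp at CycA, 48 bp at PCNA, 55 bp at Cdk2, 73 bp at Orc5 and 117 bp at Sse, counted over the promoter window without the 100 bp limit. Counted likewise, IDR summits also had DREs at 115 bp (BubR1) and 136 bp (a second one at Orc2), so the ranges overlapped. The DRE contains CGATA, the core bound by the insulator protein BEAF, so these counts overlap: CGATA was within 100 bp of the summit at 9 of 17 genes (52.9%, against 42.6%), and in 66.0% of the 47 promoters against 53.1%. GAGAGA, the E-box CACGTG and the Motif 1 core GTCACAC were each within 100 bp of the summit at 0 of 17 genes, against 6.91, 2.17 and 7.54% of all genes with an IDR promoter summit. In the wider promoter window they were at 8.51, 2.13 and 21.3% of the 47, against 17.1, 5.33 and 11.1%. A match of letters is a description and does not show binding by the factor.

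**Figure D5:**
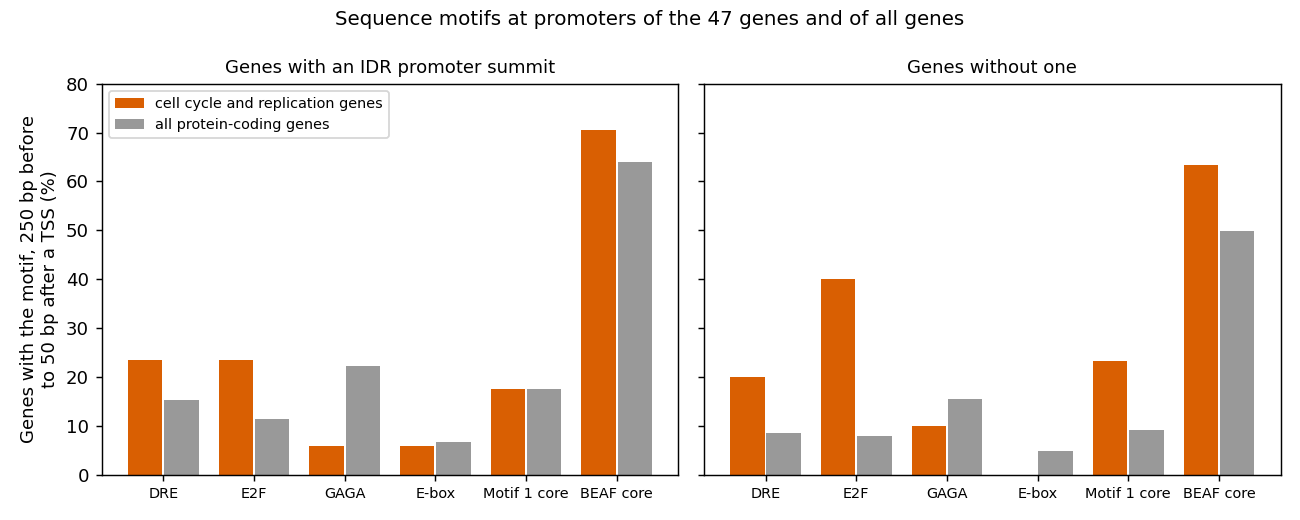
Share of genes (y axis, %) with each motif (x axis) in the 250 bp before to 50 bp after a TSS, for the 47 cell cycle and replication genes (orange) and all protein-coding genes (grey), split by whether the gene had an IDR promoter summit (left, 17 of the 47) or not (right, 30). The E2F bar of the 47 is 23.5% on the left and 40% on the right, against 11.4 and 7.90% for all genes.

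Other genes of the same pathways were counted in the same way. Of 120 further symbols, 115 were matched, and 40 of them (34.8%) had an IDR promoter summit against 22.8% of all genes. These were 8 of 30 other origin firing and fork genes (26.7%), 13 of 28 other cyclins, CDKs and entry regulators (46.4%), 3 of 9 Rb and Myb complex genes, 10 of 34 other APC/C, kinetochore and checkpoint genes (29.4%), and 6 of 14 cohesin and condensin genes (42.9%). PolD2, an accessory subunit gene of polymerase delta, had a summit of rank 140, with ranks of 170, 160 and 133 in replicates 1, 2 and 3, while PolD1, the catalytic subunit gene, had none in the pooled list. The PolD2 summit lay 159 bp from its TSS and 327 bp from that of CG13933. pds5, a cohesin regulator, was at rank 210 (251, 229 and 202), and Cdc16, an APC/C subunit gene, at rank 341 (370, 414 and 377). The pds5 summit lay 178 bp from its TSS and nearer, at 100 bp, to that of Mppe, and the Cdc16 summit lay 106 bp from its TSS and 239 bp from that of orb. All 3 summits were even across replicates and, in the pooled list, stronger than any promoter summit of the 47 genes, but none can be assigned to a single gene. In replicate 3 the Dp summit, at rank 286, was stronger than that of Cdc16, at rank 377.

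The second gene named in each group ranked lower. Ctf4, which links helicase and polymerase at the fork, was at rank 675, SMC2, a condensin subunit gene, at rank 909, and tum, a gene of the centralspindlin complex of cytokinesis, at rank 744. mei-41, the ATR checkpoint kinase gene, was at rank 614 with ranks of 417 and 1148 in replicates 1 and 3 and none matched in replicate 2. Cdk12 was at rank 642, Rbf2, an Rb family gene, at 741, and mip130, of the Myb complex, at 2694. Each of these 7 summits also lay near the TSS of another gene, which was nearer than that of the named gene at Ctf4 (82 against 160 bp, CG8067), mei-41 (81 against 179 bp, TH1), Rbf2 (2 against 93 bp, CG32856) and mip130 (28 against 288 bp, Edem1). At Cdk12, tum and SMC2 the other TSS lay 216, 180 and 161 bp away. In 3 cases a single IDR peak lay at the promoters of a pair of these pathway genes: Mcm2 with RPA1, Bub3 with Cap-D2, and barr (a condensin subunit gene) with lok (the Chk2 checkpoint kinase gene), the last at rank 3823.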

How the data were processed

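Dek-GFP ChIP-seq peaks of 3 biological replicates, 1 group, were read as the authors deposited them in the narrowPeak format on dm6. The deposited description files say that a replicate list derives from its own alignments plus 1 further file, the pooled list from the 3 replicates plus that file, and the IDR list from the replicate and pooled lists. What the further file holds is not stated there. As score, each deposited peak has the authors' signal, whose unit no source used here states, so lists were compared with each other mainly by rank. For Dp and RnrS the signals of the replicates were given beside the ranks. The deposited −log10 q value was used for a limit of 0.05 and to describe peaks, and the deposited offset gave the summit. Fragments were 200 to 800 bp after sonication, per the labels. For the peak caller, the aligner and the threshold of the IDR, no name or value is given in the sources used here. The lists give no read counts, so depth and its precision are unknown.

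Gene models came from Ensembl release 115 and sequence from RefSeq Release 6, both in dm6 coordinates, and 0 peaks ran past an arm's end. Positions count from 1. Promoter summits lay within 500 bp of any annotated TSS of the gene, and summits elsewhere lay inside the gene but outside those windows. A replicate summit within 150 bp was taken as the same site as an IDR summit. Members and lists were chosen with earlier results of these data known. Counts are therefore given beside the same count over all 13968 protein-coding genes, with no test. All genes with an IDR summit were named, as were those with a pooled promoter summit present in all 3 replicate lists and the 2 strongest of each group of other pathway genes. The symbols lat, Lig1, Tipin, RNASEH1 and SA matched no single gene. Counting was tested on simulated data. Analyses used Python 3.11.15 and matplotlib 3.10.9.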

Additional observations from a re-analysis of the deposited data

How the results depend on the processing

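The count of genes with an IDR promoter summit was 17 of 47 at 500 bp (background 22.8%). It was 14 at 200 bp (background 16.2%) and 18 at 1000 bp (background 26%). It was 18 for any part of a peak (background 24.1%) and 16 with the outermost start only (background 20.8%). It moved to 8 with the 2368 strongest IDR peaks, 37 with all pooled peaks and 32 with pooled peaks of q 0.05 or lower. It was 6 of 19 genes with no TSS of another gene within 1000 bp and 11 of 34 genes with 1 TSS. The q limit and the single-TSS genes were chosen after seeing the data. With the strongest peaks, all pooled peaks and the q limit, in that order, origin licensing genes gave 2, 9 and 9, fork genes 1, 4 and 3, cyclins and kinases 3, 12 and 10, and checkpoint genes 1, 9 and 7 (backgrounds 13.2, 48.8 and 34.9%). Licensing genes gave 3 at 200 bp (background 16.2%). With no near TSS (background 12.8%) they gave 1 of 5, fork genes 0 of 3, cyclins and kinases 1 of 5 and checkpoint genes 4 of 6. With 1 TSS (background 17.7%) the counts were 3 of 11, 1 of 5, 3 of 9 and 4 of 9. E2F factors gave 1 with the strongest peaks and 1 with the outermost start. Leaving out 1 replicate gave 7 to 12 for all genes, 2 to 4 for licensing, 1 to 1 for fork, 1 to 3 for cyclins and kinases, 2 to 2 for E2F and 1 to 2 for checkpoint genes, under a rule that is stricter by construction. The background under that rule was 16.5, 14.2 and 17.3% without replicate 1, 2 and 3. The mean count per replicate was 15.3 among the strongest peaks and 37.3 in the full lists. Genes with an IDR summit elsewhere numbered 2, with 3 at 200 bp (background 8.86%) and 1 at 1000 bp (background 5.90%). Within 200 bp of the summit, motif counts of 17 rose to 4 (DRE), 2 (E2F), 3 (GAGA), 2 (E-box), 3 (Motif 1) and 13 (BEAF), as a wider window must allow. In the same order, these were 23.5, 11.8, 17.6, 11.8, 17.6 and 76.5% of the 17 genes. Among all genes with an IDR promoter summit the shares were 15.5, 8.79, 17.4, 6.53, 16.9 and 62%. No paired comparison of groups was possible because all 3 replicates form 1 group. Other causes of these moves were not tested. No sample here measures background signal, and the depth is unknown.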
